A study of Mus musculus with 675 samples.

Results

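The 6 genes described here, Rgs2, Rgs3, Rgs4, Rgs5, Rgs16 and Rgs7bp, were the rows of the aorta count table whose Ensembl identifiers map to these symbols in GRCm38, out of 46517 gene identifiers. They encode regulators of G protein signalling and 1 of their binding partners. The rule that picks them uses their names, not a measured value, but the names were chosen with earlier results of these data known. Each of the 675 samples was a single cell, profiled by Smart-seq2, a plate method that reads along the whole transcript and adds no molecular identifiers. The mice were male C57BL/6, aged 10 weeks per the labels, with no genotype or treatment stated. The labels tie 54.4% of the cells to a pool of 2 mice on 1 plate (pool A) and the other 45.6% to a second pool of 2 mice on its own plate (pool B), so mice and plate cannot be told apart, and each pool counted as 1 replicate. One field of the labels names heart as the starting organ and the tissue field reads aorta; what the cells were sorted on is not stated.

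A receptor coupled to a heterotrimeric G protein makes the alpha subunit exchange GDP for GTP, and the signal lasts until the alpha subunit hydrolyses that GTP. RGS proteins speed up this hydrolysis and so shorten the signal. In the vessel wall this applies to the receptors for noradrenaline, angiotensin, endothelin and thromboxane, which act through Gq and Gi proteins to contract smooth muscle. Rgs2 acts mainly on Gq, Rgs4, Rgs5 and Rgs16 act on Gi and Gq and belong with Rgs2 and Rgs3 to the R4 subfamily, Rgs3 exists in long and short forms, and Rgs7bp has no RGS domain but anchors the R7 subfamily, with its partner Gnb5, to the membrane. Rgs5 is also widely used to mark pericytes.

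In GRCm38, 4 of the 6 genes lie on chromosome 1. Rgs5 occupies chr1:169655501-169695813 on the plus strand (4546 exonic bases) and Rgs4 chr1:169741477-169747642 on the minus strand (3098 exonic bases), and they are direct neighbours 45663 bases apart. Rgs2 lies at chr1:143999338-144004161 on the minus strand (3627 exonic bases). Rgs16 lies at chr1:153740349-153745468 on the plus strand (2339 exonic bases) next to Rgs8. Rgs3 lies at chr4:62559847-62704001 on the plus strand and is the longest in exons (10801 bases). Rgs7bp lies at chr13:104945904-105054930 on the minus strand (7077 exonic bases). Rgs16 shares exon bases with the antisense gene Gm28513, and the strand setting of the counting is not stated, so counts at Rgs16 cannot be assigned to 1 of them.

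The promoters of the neighbours Rgs4 and Rgs5 are shown because these genes had the highest levels per kilobase of the 6 in smooth muscle-like cells. Their summed levels also parted in endothelial-marked cells, where 1 cell in each pool held most of the Rgs5 counts, as described below. Each sequence is the 250 bases upstream of the start in the RefSeq table of GRCm38.p6, 5′ to 3′ on the gene's own strand, with motif matches in capitals.
Rgs5, chr1:169655251-169655500, plus strand: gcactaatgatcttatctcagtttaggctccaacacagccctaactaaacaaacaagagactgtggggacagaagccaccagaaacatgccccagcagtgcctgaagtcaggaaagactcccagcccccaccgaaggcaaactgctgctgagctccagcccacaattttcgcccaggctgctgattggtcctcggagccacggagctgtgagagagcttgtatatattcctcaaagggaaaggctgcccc
Rgs4, chr1:169747643-169747892, minus strand: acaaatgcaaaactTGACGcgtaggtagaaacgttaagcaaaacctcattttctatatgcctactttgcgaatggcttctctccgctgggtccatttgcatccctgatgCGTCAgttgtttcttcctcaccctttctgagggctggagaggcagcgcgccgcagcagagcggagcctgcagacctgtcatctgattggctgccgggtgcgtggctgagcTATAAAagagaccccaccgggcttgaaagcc
The letters searched on both strands were the CArG box, the AP-1 site TGANTCA, the CRE half-site TGACG, the RBPJ core TGGGAA and the TATA box TATAAA. The Rgs4 window held the CRE half-site at -236, the same half-site on the other strand at -141 and the TATA box at -31, counted from the start. The Rgs5 window held none of these letter strings. The search and the shares below used the whole promoter windows of the table, which run on past the start and are longer than the bases shown. Of 32851 such windows, 20.8% held the CRE half-site, 13.6% the TATA box and 25.6% the RBPJ core. The AP-1 site was in 7.81% and the CArG box in 1.63%, and the CArG box was in none of the 7 windows of the 6 genes. A match describes these letters only and is not evidence of binding.

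Cells were clustered on 23191 genes that left out the 6 genes and all other genes of the lists described here, and clusters were named from marker lists. The same cells were both clustered and compared, so the comparisons are not independent of the clustering. The smooth muscle-like class held 534 cells (52.8% from pool A), the fibroblast-like class 61 (38 from pool A and 23 from pool B) and the endothelial-like cluster 30 (20 and 10). A further 50 cells were left unnamed because their leading genes, such as Myh6, went against a smooth muscle name. No separate mural cluster formed at this resolution, so the endothelial-like cluster was divided, after its values had been seen, by the mural and endothelial marker lists (at least 3 markers at 100 CPM, counts per 1000000 counts). This gave 9 mural-marked cells (6 and 3), 19 endothelial-marked cells (13 and 6) and 2 cells carrying both sets. Of the 30 cells, 3 lay near the cut. The plan was to test only classes with at least 5 cells in each pool. The mural-marked class, with 3 cells in pool B, fell short of this minimum. Its comparisons were tested all the same, and their p-values rest on those few cells. The mural-marked cells held 8 of 10 mural markers at 100 CPM in pool A and 9 of 10 in pool B, and their mural markers summed to 4525 and 5249 CPM, where those of the smooth muscle-like pools summed to 2036 and 1852. The same list chose these cells, so their high mural levels are in part set by the rule and give the name no independent support. The mural-marked cells also held all 10 smooth muscle markers at 100 CPM in both pools, as smooth muscle-like cells did. In mural-marked pools those markers summed to 21252 and 13769 CPM, and the smooth muscle-like pools had 23408 and 21171 CPM. Fibroblast markers of the mural-marked cells summed to 7970 and 3927 CPM, those of fibroblast-like cells to 28641 and 28375 CPM. The endothelial-marked pools carried smooth muscle markers at 1523 and 3878 CPM, and erythroid markers at 12.6 and 1402 CPM. The part of these other markers in the results was not tested. Total counts per cell ran from 51886 to 713700, with medians in pools A and B of 290530 and 327821.5 in smooth muscle-like cells and 154445.5 and 140447 in fibroblast-like cells.

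Levels below are CPM from counts summed over all cells of a class in a pool, given for pool A and then pool B. Per-kilobase levels divide the mean of the pools by the exonic length and are the only ones compared between genes. Differences are log2 values ± standard error from edgeR's quasi-likelihood test with the pool as a block. The standard error was derived as the absolute log2 value over the square root of the test's F statistic. Benjamini-Hochberg adjustment was over all genes tested (7218 genes for the clusters, 7021 after the division). Calls are at an adjusted p under 0.05. With 2 pools a class, the standard deviation (SD) rests on n = 2.

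**Figure D1:**
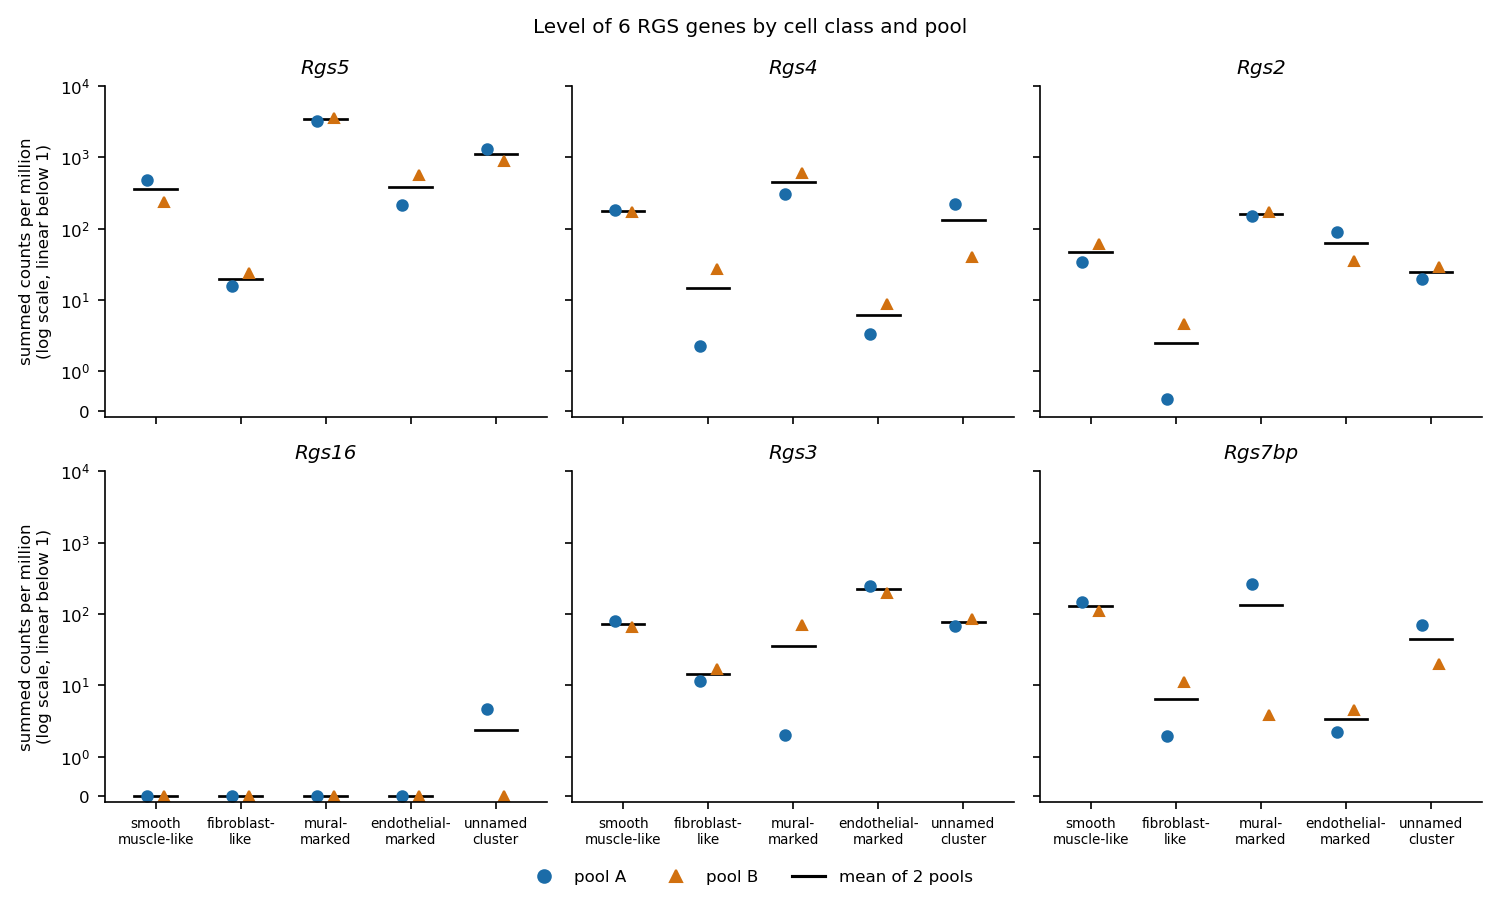
Summed counts per 1000000 (CPM; vertical axis, log scale, linear below 1) of the 6 genes in each class, with a circle for pool A, a triangle for pool B and a bar for their mean. Rgs5 is highest in mural-marked cells, Rgs3 in endothelial-marked cells, and Rgs16 lies at or near 0 in all classes.

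Rgs5 had the highest mean level per kilobase of the 6 genes in smooth muscle-like and mural-marked cells, although in the smooth muscle-like pool B it lay below Rgs4. It stood at 3270 and 3608 CPM in mural-marked cells (mean 3439 ± 239.2, SD, n = 2). The smooth muscle-like pools had 486 and 240 CPM (362.9 ± 173.6), the endothelial-marked pools 211.9 and 567 CPM (390 ± 251.2) and the fibroblast-like pools 15.8 and 23.6 CPM (19.7 ± 5.48). The mural-marked pools lay above all others and the fibroblast-like pools below all others, and the smooth muscle-like and endothelial-marked pools overlapped. Per kilobase, the mean was 79.8 in smooth muscle-like and 756 in mural-marked cells. In the unnamed cluster Rgs5 stood at 1318 and 889 CPM, between the mural-marked and the smooth muscle-like levels.

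The fitted differences of Rgs5 followed the same order. Rgs5 was higher in smooth muscle-like than in fibroblast-like cells by 4.05 ± 0.48 (edgeR adjusted p = 0.00476), with differences within the pools of 4.93 and 3.34. Rgs5 was the only 1 of the 6 genes called in this comparison, in which 3.52% of all genes tested were called, and it also passed in the fit with the divided classes (0.783% of genes called). The median difference of the 6 genes was 3.70 beside 0.18 over all genes tested, and 3.81 without Rgs16, which had 0 counts in fibroblast-like cells. Against mural-marked cells, Rgs5 was lower in smooth muscle-like cells by a log2 difference of -3.22 ± 0.53 (edgeR adjusted p = 0.0309) and in fibroblast-like cells by -7.30 ± 0.64 (edgeR adjusted p = 0.00111). In these comparisons 0.57% and 1.31% of all genes were called, and Rgs5 was again the only member called, of the 5 tested. Rgs5 was higher in mural-marked than in endothelial-marked cells by 3.04 ± 0.53 (edgeR adjusted p = 0.0131), where 3.87% of genes were called and Rgs4 was the other member called. Clustering at resolution 1.5 gave the 1 other mural-like class, of 27 cells, which held 8 of the 9 mural-marked cells, 15 smooth muscle-like cells and 4 unnamed cells. There the difference of Rgs5 from the endothelial-like class was -0.14 (edgeR adjusted p = 0.954) and smooth muscle-like minus mural-like cells gave -1.93 (edgeR adjusted p = 0.888), so neither call held, while fibroblast-like minus mural-like cells gave -5.81 (edgeR adjusted p = 0.0139).

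Between smooth muscle-like and endothelial-marked cells no direction held for Rgs5. The fitted difference was -0.19 ± 0.50 (edgeR adjusted p = 0.894), with 1.20 in pool A and -1.24 in pool B, and 0 of the 5 members tested were called there beside 3.62% of all genes. Single cells carried the endothelial-marked level. One cell held 64.9% of the Rgs5 counts in pool A and another 97.2% in pool B, and without them the level was 82.9 and 20.1 CPM. The 3 endothelial-marked cells at or above 100 CPM had 734, 1335 and 2484 CPM of Rgs5, together with 1968, 1569 and 973 CPM of Cdh5, the cadherin of endothelial junctions, and 0 CPM of the pericyte gene Higd1b. The cell at 2484 CPM also had 406 CPM of Myh11, the smooth muscle myosin heavy chain, 15.1 CPM of the pericyte gene Kcnj8 and 5.02 CPM of Vtn, another mural marker. They carried 0, 1 and 2 mural markers at 100 CPM; how far RNA of a neighbouring cell contributed was not tested, and no doublet caller was run. Rgs5 was called lower in fibroblast-like than in endothelial-marked cells (-4.26 ± 0.56, edgeR adjusted p = 0.00288; 3.39% of genes called), and without the highest endothelial-marked cell of each pool the pool B levels, 20.1 CPM against 23.6 CPM, no longer lay in that order.

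The mural-marked level of Rgs5 was itself uneven between cells. In pool A the 6 cells had 15714, 4889, 4832, 845, 47.6 and 18.6 CPM, and in pool B the 3 cells had 8603, 2883 and 2282 CPM. So 7 of the 9 cells lay above 800 CPM. The other 2, both of pool A, lay in the range of fibroblast-like cells. Like most smooth muscle-like cells, whose median was 17.9 CPM in pool A and 34.4 CPM in pool B, they also lay below 100 CPM. These 2 cells held 3 mural markers at 100 CPM, the least the rule allows, and the 7 others held 6 to 8. Of those 2, the cell at 47.6 CPM carried 6831 CPM of Dcn, a fibroblast proteoglycan, and the cell at 18.6 CPM carried 5710 CPM of Myh11. Leaving out the highest cell of each pool left 2054 and 2629 CPM, still above every smooth muscle-like pool.

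In smooth muscle-like cells Rgs5 was spread over a wide range rather than around its class mean. The median cell had 17.9 CPM in pool A and 34.4 CPM in pool B, the upper quartile 347.1 and 228.2 CPM and the highest cell 7137 and 4315 CPM. At least 100 CPM was reached by 40.4% of these cells in pool A (exact Clopper-Pearson 95% interval 34.6% to 46.4%) and 38.9% in pool B (32.8% to 45.2%). The intervals of the pools overlapped over most of their width. They take the cells of a pool as independent draws, although these share mice and plate, and they hold no spread between pools. The median among the cells at 100 CPM or more was 500 CPM in pool A and 338.1 in pool B. Between 10 and 100 CPM lay 68 and 78 cells. In fibroblast-like cells 1 of 38 and 1 of 23 cells reached 100 CPM.

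The share of cells with any Rgs5 count was high in both of these classes. Counts of it were present in 91.1% and 94.4% of cells in the smooth muscle-like class and in 86.8% and 91.3% in the fibroblast-like class, whose mean level was 19.7 CPM. After thinning each cell to 20000 counts these shares were 54.3% and 54% against 23.7% and 17.4%. The level of 100 CPM was therefore used to describe single cells. Floors take in counting error alone, as reads amplified from 1 molecule cannot be told from reads of several.

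**Figure D2:**
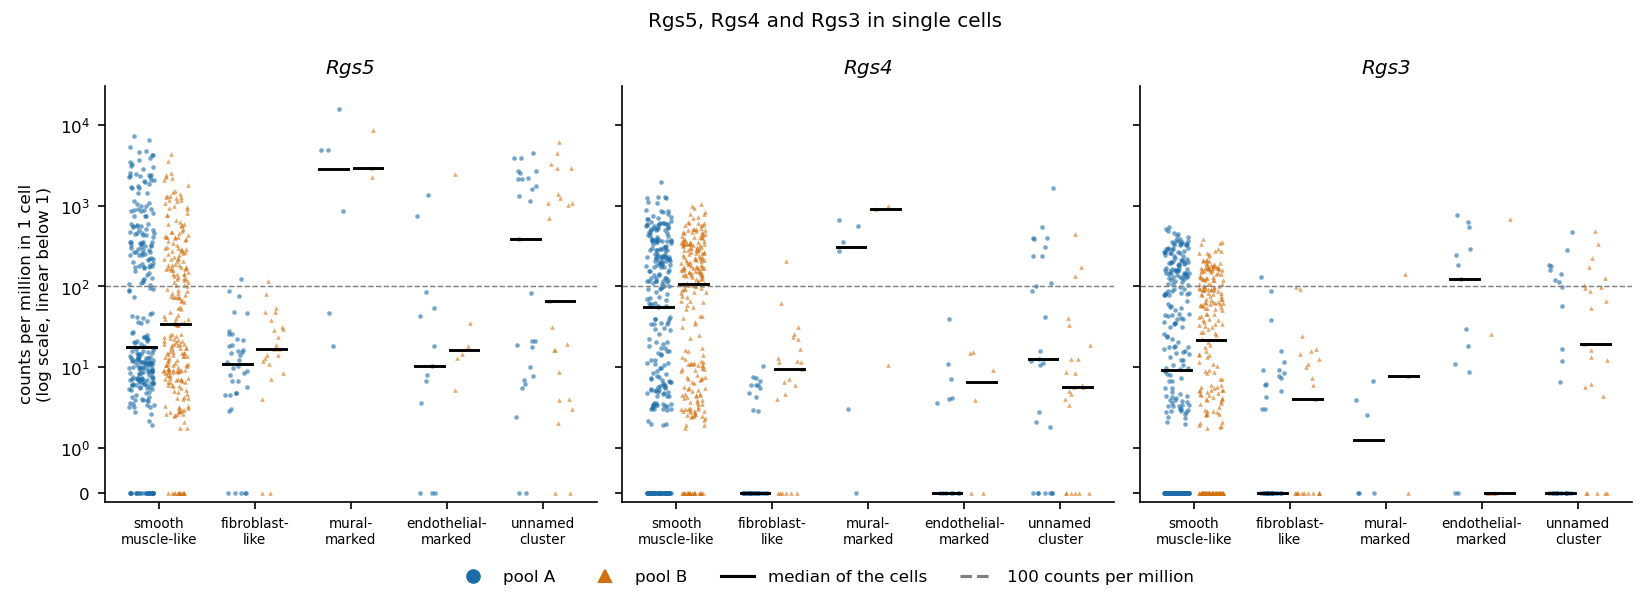
CPM of Rgs5, Rgs4 and Rgs3 in each single cell by class (vertical axis, log scale, linear below 1; circles pool A, triangles pool B; bars are medians and the dashed line marks 100 CPM). Smooth muscle-like cells span from 0 to 7137 for Rgs5, while 2 of 61 fibroblast-like cells pass the dashed line.

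Rgs4, the neighbour of Rgs5 on chromosome 1, was measured in smooth muscle-like and mural-marked cells and was low in endothelial-marked cells. Its level was 180.5 and 173.5 CPM in the smooth muscle-like class (mean 176.99 ± 4.98, SD, n = 2), 307.9 and 603 CPM in the mural-marked (456 ± 208.8), 2.29 and 27.4 CPM in the fibroblast-like (14.8 ± 17.8) and 3.35 and 8.91 CPM in endothelial-marked cells (6.13 ± 3.94). The mural-marked and smooth muscle-like pools all lay above the fibroblast-like and endothelial-marked pools, and the last 2 classes overlapped. Per kilobase, Rgs4 had a mean of 57.1 in smooth muscle-like and 147.1 in mural-marked cells, below the means of Rgs5. By pool the smooth muscle-like levels per kilobase were 58.3 and 55.99 for Rgs4 and 106.8 and 52.8 for Rgs5, so the order turned in pool B.

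Rgs4 was higher in mural-marked than in endothelial-marked cells by 6.16 ± 1.36 (edgeR adjusted p = 0.0354), with 6.48 and 6.06 within the pools, and by 1.49 with the mural-like class of resolution 1.5 (edgeR adjusted p = 0.443). The difference between smooth muscle-like and endothelial-marked cells, 4.92 ± 1.29, had an edgeR adjusted p of 0.073, although both pools gave more than 4 (5.71 and 4.27). Against fibroblast-like cells it was 3.59 ± 1.22 (edgeR adjusted p = 0.205), with 6.26 in pool A and 2.66 in pool B, and the fibroblast-like level in pool B fell from 27.4 to 11.7 CPM without its highest cell. Smooth muscle-like and mural-marked cells differed by -1.24 ± 1.08 (edgeR adjusted p = 0.591). In the 9 mural-marked cells Rgs4 had 657, 559, 351.2, 270.6, 3.10 and 0 CPM in pool A and 998, 902 and 10.8 CPM in pool B. The 2 lowest cells of pool A were the same 2 cells that were lowest for Rgs5.

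Single smooth muscle-like cells reached 100 CPM of Rgs4 in 44.3% of cases in pool A and 52.8% in pool B, beside 0 of 38 and 1 of 23 fibroblast-like cells. Any count was found in 80.5% and 91.3% of the smooth muscle-like and in 31.6% and 73.9% of the fibroblast-like cells. At 20000 counts per cell the smooth muscle-like shares were 53.9% and 60.3%. The fibroblast-like share was then 39.1% in pool B, with 0 of 38 cells in pool A, so the pools of that class stood apart at either depth.

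Rgs2 had a lower level per kilobase in smooth muscle-like cells (9.55 and 16.7, mean 13.1) than Rgs5 and Rgs4 in both pools, and than Rgs7bp (20.7 and 15.4) in pool A only. The pools of that class had 34.6 and 60.6 CPM (mean 47.6 ± 18.4, SD, n = 2). Rgs2 had 150 and 170 CPM in mural-marked cells (160 ± 13.8), 88.9 and 35.7 CPM in endothelial-marked cells (62.3 ± 37.6) and 0.305 and 4.66 CPM in fibroblast-like cells (2.48 ± 3.08). The fibroblast-like pools lay below all others, the mural-marked pools above all others, and the smooth muscle-like and endothelial-marked pools overlapped. Smooth muscle-like cells exceeded fibroblast-like cells by a fitted 4.46 ± 1.15, which did not pass (edgeR adjusted p = 0.0979). The mural-marked level came from few cells: in pool A 2 cells had 504 and 378 CPM, 1 had 5.11 CPM and 3 had 0, and in pool B the values were 254.2, 129.4 and 7.74 CPM. Without the highest cell of each pool the endothelial-marked level was 45.3 and 5.68 CPM.

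Among smooth muscle-like cells, 38 in pool A (13.5%) and 66 in pool B (26.2%) reached 100 CPM of Rgs2, and 36.9% and 60.7% had any count. Rgs2 is known as a gene that responds quickly to stimulation. Across smooth muscle-like cells its level had a Pearson r with the summed immediate early genes (34 genes) of -0.02 in each pool (534 cells in all), a description over cells that share a plate. Between classes, the summed immediate early genes were 6747 and 7189 CPM in smooth muscle-like, 4485 and 4940 in fibroblast-like, 12836 and 31426 in mural-marked and 23457 and 12796 in endothelial-marked cells. They were lowest in the class where Rgs2 was lowest, and their part in the Rgs2 levels was not tested.

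Rgs3 was the 1 member whose highest class level was in endothelial-marked cells. It stood there at 243.9 and 198.3 CPM (mean 221.1 ± 32.2, SD, n = 2; 20.5 per kilobase), and the smooth muscle-like pools had 80.4 and 66.2 CPM (73.3 ± 10.0; 6.79 per kilobase). The mural-marked pools had 2.00 (3 counts) and 69.7 CPM (35.8 ± 47.9), and the fibroblast-like pools 11.6 and 16.9 CPM (14.2 ± 3.76). Both endothelial-marked pools lay above all other pools, but in pool B 1 cell held 97.2% of the counts and the level without it was 7.77 CPM. In pool A the level without the highest cell was 191.4 CPM, and 7 of 13 cells reached 100 CPM, against 1 of 6 in pool B. None of the differences of Rgs3 passed the test with the divided classes, smooth muscle-like minus endothelial-marked cells among them (-1.69 ± 1.15, edgeR adjusted p = 0.445). Smooth muscle-like minus fibroblast-like cells, fitted over the undivided clusters, gave 2.24 ± 0.51 (edgeR adjusted p = 0.0634). With the undivided endothelial-like cluster, where Rgs3 stood at 155.5 and 153.1 CPM, it was called lower in fibroblast-like cells by -3.30 ± 0.53 (edgeR adjusted p = 0.0139). Rgs2 and Rgs5 were also called in that comparison, 3 of the 6 members beside 4.61% of all genes, at -5.59 ± 1.22 and -6.53 ± 0.54 (edgeR adjusted p = 0.0458 and 0.00114). In smooth muscle-like minus the undivided cluster Rgs5 was the 1 member called (-2.48 ± 0.45, edgeR adjusted p = 0.0226; 4.7% of genes called), a cluster in which mural-marked and endothelial-marked cells are mixed.

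Rgs7bp, the membrane anchor of the R7 subfamily, had its highest pool level in mural-marked cells, but of the named classes the smooth muscle-like class alone had at least 100 CPM in both pools. The smooth muscle-like level was 146.4 and 109.01 CPM (mean 127.7 ± 26.4, SD, n = 2; 18.04 per kilobase). It was 1.98 and 11.1 CPM in fibroblast-like cells (6.53 ± 6.43), 2.23 and 4.46 CPM in endothelial-marked cells (3.34 ± 1.57) and 261.4 and 3.80 CPM in mural-marked cells (132.6 ± 182.1). The smooth muscle-like pools lay above the fibroblast-like and endothelial-marked pools without overlap, and the mural-marked pools lay on either side of them. In pool A 2 of the 6 mural-marked cells, with 629 and 485 CPM, held all of its Rgs7bp counts. The cell at 629 CPM held 51.7% of them and carried 3 mural markers at 100 CPM, the least the rule allows, with 5710 CPM of Myh11. Without this cell the mural-marked level of pool A was 160.9 CPM. The fitted differences were large and uncertain: 3.81 ± 1.44 against fibroblast-like cells (edgeR adjusted p = 0.257) and 5.13 ± 1.89 against endothelial-marked cells (edgeR adjusted p = 0.195). The differences within pools A and B were 6.15 and 3.29, and 5.97 and 4.58. Of smooth muscle-like cells, 44% and 42.5% reached 100 CPM, beside 0 of 38 and 1 of 23 fibroblast-like cells. Any count was found in 76.2% and 74.2% of smooth muscle-like and in 31.6% and 30.4% of fibroblast-like cells, or 53.5% and 48.4% against 2.63% and 4.35% at 20000 counts per cell.

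Of the partners of Rgs7bp, Rgs7 lay higher in smooth muscle-like than in fibroblast-like and endothelial-marked pools, as Rgs7bp did. Gnb5 did not follow this order and, of the classes given here, was highest in mural-marked cells. Rgs7 itself had 28 and 21.3 CPM in the smooth muscle-like class, 1.52 and 1.17 CPM in the fibroblast-like class and 0 in all mural-marked and endothelial-marked pools, where 3 counts of the total would be between 1.12 and 3.80 CPM. Gnb5, the beta subunit that pairs with the R7 subfamily, had 10.9 and 16.3 CPM in the smooth muscle-like, 18.1 and 23.6 CPM in the fibroblast-like, 61.9 and 100 CPM in the mural-marked and 0 in both endothelial-marked pools. Gnb5 was the 1 other RGS-family gene called between mural-marked and endothelial-marked cells, and with 0 counts in 1 class it is given by its levels only.

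Rgs16 had counts in 3 of 675 cells. One smooth muscle-like cell had 3.26 CPM, 1 cell with both marker sets had 69 counts (176.3 CPM) and 1 unnamed cell had 36 counts (377 CPM). It had 0 counts in all fibroblast-like, mural-marked and endothelial-marked cells. In smooth muscle-like cells of pool B, also at 0, 3 counts of the total would be 0.0360 CPM, and the same floor was 0.457 and 0.874 CPM in fibroblast-like, 2.00 and 3.80 CPM in mural-marked and 1.12 and 3.34 CPM in endothelial-marked cells. Rgs16 passed the filter on low counts in the fit over the undivided clusters, where these 3 cells held all of its counts, and it was not tested after the division.

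**Figure D3:**
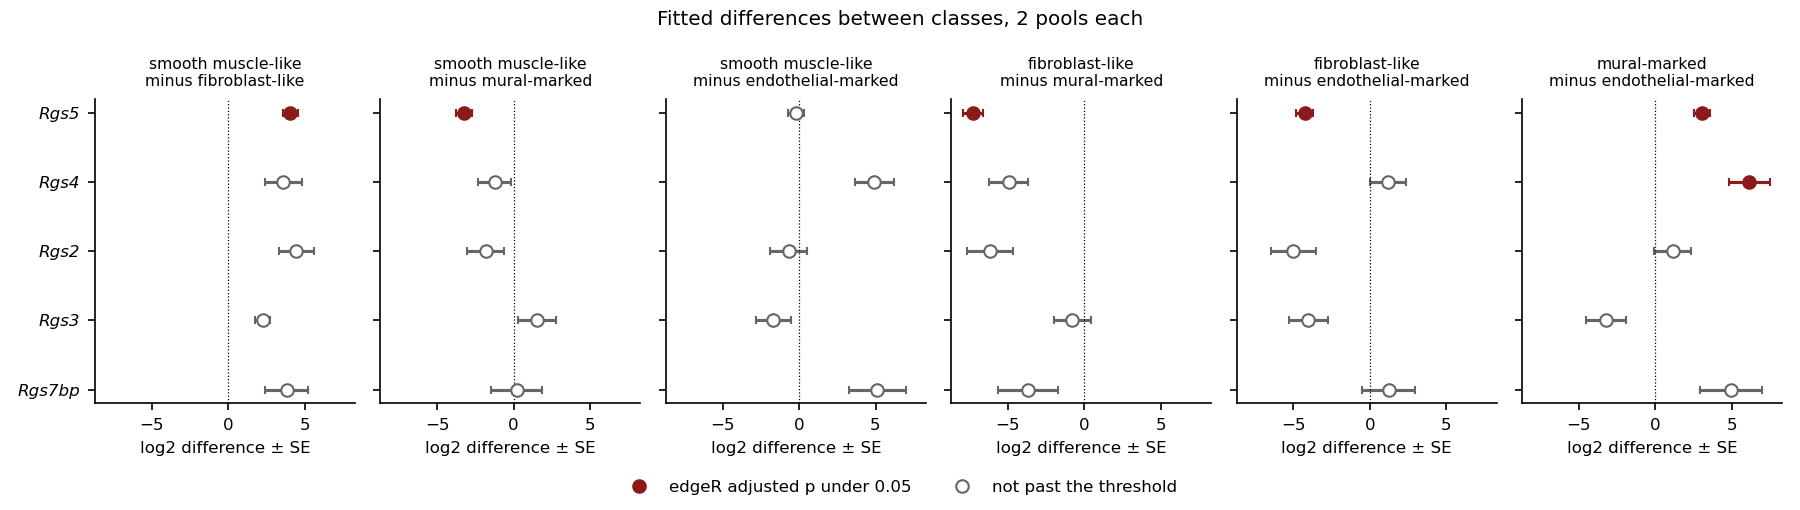
Fitted log2 differences ± standard error (horizontal axis) for 5 members in 6 comparisons of 2 pools each, filled where the edgeR adjusted p is under 0.05. Rgs5 is filled in 5 of the 6 panels and Rgs4 in 1, mural-marked minus endothelial-marked; Rgs16 is left out because it was not tested after the division.

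Within smooth muscle-like cells the members were combined in many ways. In pool A, 44 cells had no member at 100 CPM, 93 had 1, 69 had 2, 49 had 3, 26 had 4 and 1 had 5. In pool B the numbers were 25, 79, 76, 52, 18 and 2 cells. In fibroblast-like cells 36 of 38 and 20 of 23 cells had none.

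Correlations across single cells, given as descriptions of log2(CPM + 1) over cells of 1 pool that share a plate, were weak for every pair. The highest in pool A was Rgs4 with Rgs5, the chromosome neighbours, at r = 0.241, and it was 0.141 in pool B (534 cells in all). The highest in pool B was Rgs3 with Rgs7bp at 0.169, beside 0.109 in pool A. Rgs5 reached 100 CPM in 53.6% of the cells at 100 CPM of Rgs4 and in 29.9% of the rest in pool A, and in 43.6% and 33.6% in pool B. Rgs5 with Rgs7bp had 0.134 and 0.151. Rgs3 with Rgs4 had 0.200 in pool A and 0.0358 in pool B, and Rgs3 had r = 0.279 with the total count of the cell in pool B. Values this low in sparse counts do not set pairs apart.

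**Figure D4:**
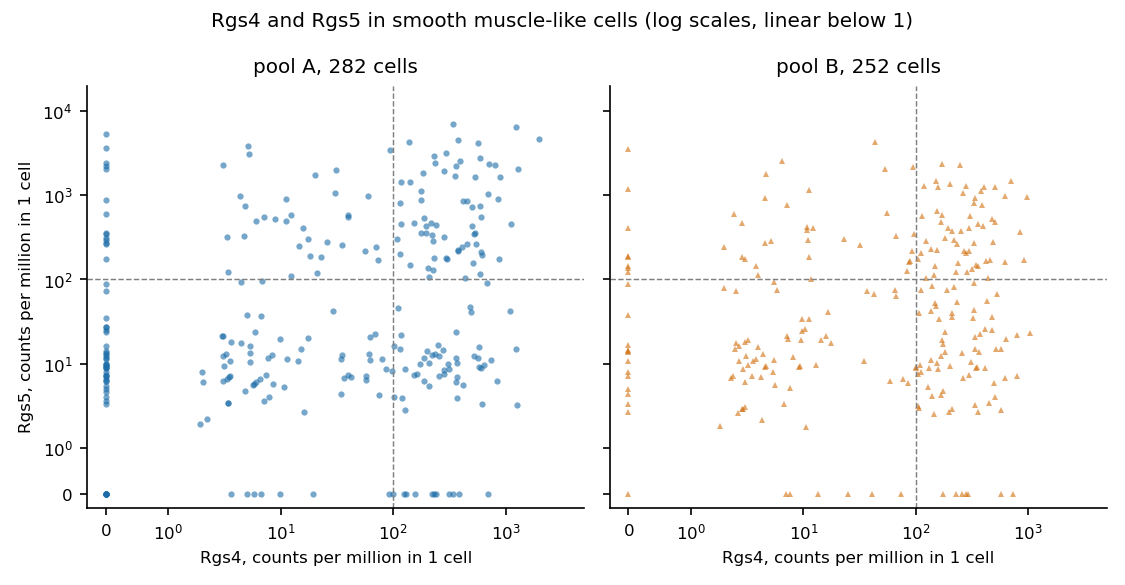
Rgs5 against Rgs4 in each smooth muscle-like cell, in CPM (both axes log scale, linear below 1), with pool A on the left and pool B on the right (534 cells in all); dashed lines mark 100 CPM. Cells lie in all 4 fields set by the dashed lines in both pools.

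The smooth muscle-like class joined 5 clusters that the pools filled unevenly, from 85.7% of the cells from pool A in cluster 2 to 6.12% in cluster 3. Rgs5 was highest in cluster 2 in both pools, at 751 and 528 CPM, followed by cluster 4 at 610 and 383 CPM and cluster 0 at 389 and 290 CPM. It was lowest in clusters 1 (195.8 and 135.3 CPM) and 3 (99 and 203.3 CPM). The first 3 kept the same order in both pools, and the 2 lowest changed places. Rgs4 stayed between 139.02 and 203.02 CPM in every cluster and pool, Rgs3 between 42.6 and 98.4 CPM and Rgs7bp between 71.1 and 188.3 CPM. Rgs2 stood at 1.07 CPM in pool A and 49.6 CPM in pool B in cluster 4, and at 149.03 CPM and 63.7 CPM in cluster 3. Its pool A values in these clusters rest on 18 and 6 cells. These are levels with no test, since clusters were made from the same cells.

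**Figure D5:**
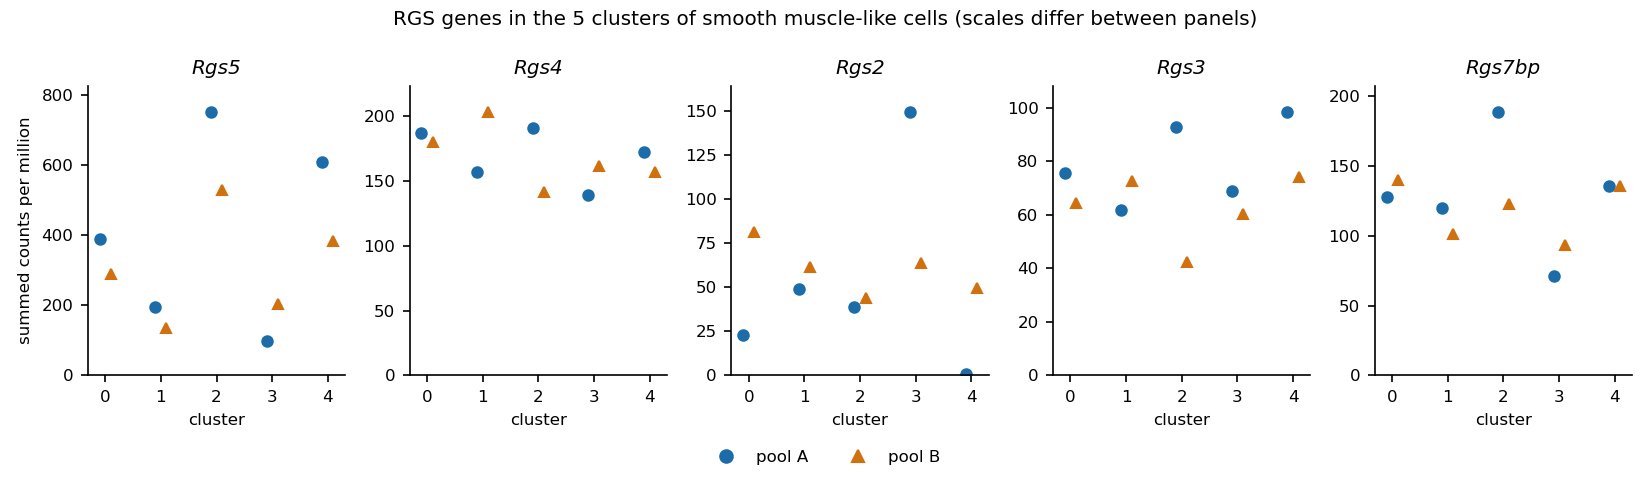
Summed CPM (vertical axis, starting at 0, with a scale of its own in each panel) of 5 members in the 5 smooth muscle-like clusters, circles for pool A and triangles for pool B. Rgs5 is highest in cluster 2 in both pools (751 and 528), and Rgs4 varies between 139.02 and 203.02.

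For each member the held-out genes with the most similar pattern across cells were found by the mean of the 2 within-pool Pearson r of log2(CPM + 1), among 4260 genes for smooth muscle-like cells and 4200 for all cells. Across the 534 smooth muscle-like cells, with values for pool A and then pool B, Rgs5 was most like Kcnc4 (0.211 and 0.295), a voltage-gated potassium channel subunit, and Ncam1 (0.206 and 0.237), a cell adhesion molecule. Rgs4 was most like Rheb (0.163 and 0.251) and Rgs5 (0.241 and 0.141). Rgs7bp was most like Fgf1 (0.134 and 0.201) and Plekho1 (0.191 and 0.142), Rgs3 like Gm11149 (0.184 and 0.222) and Stx8 (0.155 and 0.224), and Rgs2 like Scand1 (0.200 and 0.160) and Msra (0.114 and 0.231). All of these lie below 0.3 and describe weak likeness.

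Across all 675 cells, which also differ by class and depth, the 2 highest coefficients of Rgs7bp and Rgs4 lay above 0.27 in both pools. Rgs7bp was most like Susd5 (0.364 and 0.387) and Sost (0.355 and 0.341), and Rgs4 like Susd5 (0.361 and 0.277) and Rbpms (0.346 and 0.274). These genes also followed the log2 total count of the cell, with r of 0.485 and 0.479 for Susd5, 0.412 and 0.421 for Sost and 0.449 and 0.429 for Rbpms, and the part of depth in the likeness was not tested. Rgs5 was most like Parm1 (0.265 and 0.225) and Kcnc4 (0.224 and 0.262), Rgs3 like Gm11149 (0.209 and 0.259) and Actn4 (0.178 and 0.238), and Rgs2 like Emc10 (0.145 and 0.214) and Msra (0.144 and 0.213).

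The rest of the pathway was described over whole gene lists. Of 18 other RGS-family genes, counting Gnb5 and the anchor Rgs9bp, 3 reached 10 CPM in both pools of smooth muscle-like cells, against 5 of the 6 members. They were Rgs19 (10.2 per kilobase), Gnb5 (4.36) and Rgs7 (4.10), all with a lower mean per kilobase than Rgs5, Rgs4, Rgs7bp and Rgs2. Rgs19, which acts on Gi proteins, had 17.7 and 27.6 CPM in the smooth muscle-like and 74.4 and 81.9 CPM in the fibroblast-like pools, and Rgs10 at 6.63 and 6.51 CPM against 53.9 and 30.3 CPM. None of the 9 other RGS-family genes tested was called between these classes, and their median difference was -0.77 beside 0.18 over all genes and 3.70 for the 6 members. The members were set apart from the other family genes with earlier results of these data known. The part of that choice in these contrasts was not tested.

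Of the receptors of vessel tone that signal through G proteins, 7 of 38 reached 10 CPM in both pools of smooth muscle-like cells, led per kilobase by the thromboxane receptor Tbxa2r (67.8), the alpha-1D adrenoceptor Adra1d (40.4) and the thrombin receptor F2r (24.1). Against fibroblast-like cells 27 were tested and 3 called, beside 3.52% of all genes, and with the divided classes 0 of 26 were called beside 0.783%. Adra1d was higher in smooth muscle-like cells (79.7 and 73.7 CPM against 2.59 and 5.25; difference 4.24 ± 0.85, edgeR adjusted p = 0.0405). The lysophosphatidic acid receptor Lpar1 (0.264 and 0.264 CPM against 369 and 134.3) and the prostaglandin F receptor Ptgfr (0.144 and 0.108 CPM against 169.1 and 34.97) were lower. Against mural-marked cells the endothelin receptor Ednra was the 1 receptor called of 26 tested (0.57% of all genes), lower in smooth muscle-like cells (9.47 and 23.4 CPM against 612 and 1223; difference -5.91 ± 0.78, edgeR adjusted p = 0.0104), in the same direction as Rgs5. Between mural-marked and endothelial-marked cells Ednra and Tbxa2r were higher, the latter by 6.74 ± 1.33 (edgeR adjusted p = 0.0243), and S1pr1, Lpar6 and Aplnr were lower, 5 of 26 beside 3.87% of all genes.

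The G protein alpha subunits that RGS proteins act on, and the beta and gamma subunits, were taken as 1 list of 27. Of these, 17 reached 10 CPM in both pools of smooth muscle-like cells, led per kilobase by Gnai2 (136.2), Gnas (126.1) and Gng10 (109.1). Gnai2, a Gi alpha subunit, had 639 and 391 CPM in the smooth muscle-like and 628 and 404 CPM in the fibroblast-like pools. Gnaq, the Gq alpha subunit, stood at 40.9 and 16.8 CPM against 104.5 and 72.3 CPM. None of the 23 subunits tested was called between these classes, where 3.52% of all genes were, and their median difference of 0.20 was near the 0.18 of all genes. A p that misses the threshold with 2 pools does not show equal levels.

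Among the effectors downstream, 3 of 17 tested were called between the smooth muscle-like and the fibroblast-like class, beside 3.52% of all genes, and with the divided classes 0 of 16 were called. The adenylyl cyclase Adcy5 (614 and 297.05 CPM against 29.9 and 44.9; difference 3.26 ± 0.64, edgeR adjusted p = 0.0388) and the phospholipase Plcb4, which is driven by Gq (494 and 410 CPM against 102.4 and 52.2; 2.47 ± 0.32, edgeR adjusted p = 0.00684), were higher. The inositol trisphosphate receptor Itpr2 was lower (5.38 and 2.24 CPM against 75.6 and 97; -5.05 ± 0.99, edgeR adjusted p = 0.0385). None of 16 receptor kinases, arrestins and RhoGEFs was called in this comparison, and 12 of the 16 reached 10 CPM in both pools of smooth muscle-like cells.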

How the data were processed

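Cells of male C57BL/6 mice with the tissue label aorta were profiled by Smart-seq2, per the labels' protocols. The authors deposited whole-number counts per gene and cell for 46517 identifiers. Subread, featureCounts, Bowtie2, Bowtie and bcl2fastq are named, with the build GRCm38, per the submitters' processing notes; versions, duplicate removal and counting strand are not given in these sources. Symbols and exonic lengths came from GENCODE M21 (GRCm38). The 512 identifiers with no symbol held 0.217% of counts.

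A minimum of 1000 genes and 20000 counts removed 0 of 675 cells. Every cell had a well of its own, so no barcodes were shared. Cells were clustered with scanpy 1.11.5 and leidenalg 0.10.2 (2000 variable genes, 20 components, 15 neighbours, resolution 1.0), leaving 23289 genes, all members and lists among them, for testing. Clusters were named from 14 marker lists (95 genes). Counts were summed per class and pool and tested with edgeR 4.0.16 (R 4.3.3), the quasi-likelihood test with edgeR's filter on low counts, TMM scaling and the pool as a block. All classes entered 1 fit, and steps were tested on simulated data. The numbers pair the classes because every class of a pool comes from its 2 mice and 1 plate; across 2475 genes, differences of pool A minus pool B had r = 0.211 for smooth muscle-like and fibroblast-like, 0.288 for smooth muscle-like and endothelial-like and 0.0644 for fibroblast-like and endothelial-like cells. Alternatives were DESeq2 1.42.0, no filter, all genes, only the 2 classes compared, deeper cells, other resolutions, no block and each pool alone. The members and lists were chosen with earlier results of these data known.

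Besides the 6 members, the text names up to 3 called genes per list and comparison with the largest change at 10 CPM or more in both pools of 1 class, the 3 highest genes per list per kilobase, and the 2 most similar genes per member; single cells, Rgs10, Gnaq, Cdh5, Higd1b, Kcnj8, Vtn, Dcn and Myh11 were added after their values were seen. Protein sequences were not used here.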

Additional observations from a re-analysis of the deposited data

How the results depend on the processing

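Rgs5 was called higher in smooth muscle-like than in fibroblast-like cells in 11 of the 12 settings counted for this comparison. The division with DESeq2 and the division with no block were also fitted but are not in this count. At resolution 0.5, where 4 of 6 mural-marked cells of pool A and 2 of 3 of pool B fell in the fibroblast-like class, its difference was -0.34 and 0 members were called. The number of members called there was 1 as reported, 5 with DESeq2, 5 with no filter on low counts and 3 with only the 2 classes compared. The share of genes tested that were called, 3.52% as reported, was 12.57% with DESeq2, 3.82% with no filter, 3.73% over all genes, 5.36% with only the 2 classes, 1.49% and 1.77% at resolutions 0.5 and 1.5, and 0.783% after the division by markers. No filter and all genes also raised the number of genes tested. In smooth muscle-like minus endothelial-like cells, 4.70% became 16.85%, 4.95% and 4.95% with DESeq2, no filter and all genes, and 19.15% with the division and DESeq2. The 1 member called became 0 at resolution 1.5, with the division (also with no block) and with the unnamed cluster joined to the smooth muscle-like class. The number became 2 with the division and DESeq2, where Rgs4 and Rgs7bp were called and Rgs5 was not. It stayed 1 at resolution 0.5, where Rgs5 lost its call (edgeR adjusted p = 0.134) and Rgs7bp gained one (5.04, edgeR adjusted p = 0.0403). In fibroblast-like minus endothelial-like cells, 4.61% became 19.54%, 4.90%, 5.30% and 18.61% under the same 4 settings, and the 3 members called became 1 at both resolutions and with the division, which was Rgs5 except at resolution 0.5, where Rgs3 kept its call (edgeR adjusted p = 0.0218) and Rgs5 lost it (-1.92, edgeR adjusted p = 0.177). After the division, DESeq2 raised the share called from 0.57% to 16.35% for smooth muscle-like, from 1.31% to 19.54% for fibroblast-like and from 3.87% to 26.64% for endothelial-marked against mural-marked cells, with 3 members called in the second (1 as reported) and 4 in the third (2 as reported). At resolution 1.5, the 1 other setting with a mural-like class (10 and 17 cells), 0.028% of genes and 0 members were called against smooth muscle-like cells, and 0 members against endothelial-like cells, with Rgs5 at -0.14. The remaining settings gave no mural-like class and so no value.

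Signs also turned for differences that had not passed. Rgs4 in smooth muscle-like minus endothelial-like cells, -0.19 as reported, was 0.017 with no filter, 0.49 and 1.41 at resolutions 0.5 and 1.5, 4.92, 4.45 (DESeq2) and 4.81 (no block) with the division, and ran from -0.58 to 0.17 in pools B and A alone. Rgs4 in fibroblast-like minus endothelial-like cells turned to 1.20, 0.90 (DESeq2) and 1.39 (no block) with the division. Rgs7bp in that comparison turned to 2.30 and 1.17 at the resolutions and 1.23, 0.89 (DESeq2) and 1.06 (no block) with the division, and ran from -5.40 to 1.44 in pools A and B alone. Smooth muscle-like minus mural-marked cells gave Rgs7bp values of -0.17 (DESeq2), -0.12 (no block) and, in pools A and B alone, -0.84 to 4.80, and Rgs3 values of 5.27 to -0.073. Fibroblast-like minus mural-marked cells gave 2.48 to -2.04 for Rgs3 and -6.97 to 1.52 for Rgs7bp in pools A and B alone, and mural-marked minus endothelial-marked cells gave 6.81 to -0.22 for Rgs7bp. The cause was not tested. Each pool alone leaves no residual degrees of freedom, so it gives values with no test. Without the replicate block, 3.08%, 4.50% and 4.90% of genes were called in the 3 comparisons of clusters, and Rgs2 lost its call in fibroblast-like against endothelial-like cells (edgeR adjusted p = 0.052).

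Thinning to 20000 counts lowered the share of smooth muscle-like cells with a count (mean of the 2 pools) from 48.8% to 26.4% for Rgs2, 67.5% to 44% for Rgs3, 85.9% to 57.1% for Rgs4, 92.8% to 54.1% for Rgs5 and 75.2% to 51% for Rgs7bp. With 2 pools, 9 mural-marked and 19 endothelial-marked cells, single cells set several class levels.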
